A study of Mus musculus with 16 samples.

Results

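Thermogenic fat can spend ATP in a creatine cycle, and the 7 genes described here code for the enzymes and the transporter of that cycle in the mouse: Gatm and Gamt (synthesis), Slc6a8 (uptake), Ckb, Ckmt1 and Ckmt2 (phosphorylation) and Alpl (dephosphorylation). They were chosen by name from the known biochemistry of the cycle, at a time when earlier results of these data were known, and every array probe whose RefSeq identifier mapped to one of them was taken. This gave 11 probes for 7 genes, of 56605 probes and 22911 named genes on the array, and the probe with the highest mean level over all arrays stood for its gene. Of the 7 genes, 6 were tested in each depot, among 14280 genes in brown adipose tissue (BAT) and 14149 in gonadal white adipose tissue (gWAT), because Ckmt2 lacked a group with all 4 arrays well above background.

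Creatine is made from arginine and glycine by GATM, which forms guanidinoacetate in mitochondria, and by GAMT, which methylates it with S-adenosylmethionine, and it also enters cells from blood through the sodium-dependent transporter SLC6A8. Creatine kinases move a phosphate from ATP to creatine: CKB is the brain-type enzyme of the cytosol, and CKMT1 and CKMT2 are the ubiquitous and the sarcomeric enzymes of the mitochondrial intermembrane space. In brown and beige adipocytes phosphocreatine can be split again without regenerating ATP, and tissue-nonspecific alkaline phosphatase, the product of Alpl, has been described as the phosphatase of this futile cycle, which releases heat beside UCP1.

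The arrays were made to ask what deleting Pgam1, the gene of a phosphoglycerate mutase that works late in glycolysis, from adipocytes does to gene expression in fat. Male C57BL/6NCrSlc mice kept at 23 °C on normal chow gave BAT and gWAT, profiled on 16 single-colour Agilent arrays in all. Each depot had 4 arrays from littermate controls (labelled wild type, and in the methods Pgam1 flox/flox without Cre). It had another 4 from Adipo-Pgam1 KO mice (Pgam1 flox/flox with the Adipoq-Cre transgene). All mice were 16 weeks old except replicate 4 of the KO group in each depot, which was 14 weeks old. Both genotypes thus carried the floxed allele, Adipoq-Cre is active in adipocytes, and the RNA came from whole tissue with its vessels, immune cells and preadipocytes. The labels do not say which replicates came from separate animals or which BAT and gWAT samples shared one, so p-values measure the spread between these samples.

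Levels are log2 of the processed signal over the 75th percentile of all probes on the same array, so that 0 is the signal of the 75th-percentile probe, and a level of one probe is not compared with that of another. The targeted gene, Pgam1, had levels of 7.82 to 8.07 in control BAT and 6.03 to 6.43 in Adipo-Pgam1 KO BAT (log2 change -1.74, limma adjusted p = 1.11e-05). In gWAT it ran the other way, at 5.07 to 5.67 on the control arrays and 5.95 to 6.50 on the arrays labelled Adipo-Pgam1 KO (log2 change 0.95, adjusted p = 0.0139), and every gWAT direction below rests on that label. Slide and genotype were also largely nested, since 3 control BAT arrays were on slide 1, control BAT replicate 4, all KO BAT arrays and control gWAT replicates 1 to 3 on slide 2, and the rest on slide 3, which was scanned on another day. The 75th-percentile signal was 401 to 451 in control BAT and 650 to 916 in KO BAT, and each array had between 50% and 62.2% of its probes well above background. The number of arrays limits the precision of every value.

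Other tissues were visible on single arrays. Of 20 skeletal muscle genes, 15 were higher on both replicates 1 and 3 of KO BAT than on any of the 6 other BAT arrays. The summed level of all 20 genes was 211 and 41.5 times the 75th percentile on KO replicates 1 and 3. It was 9.76 and 14.0 on KO replicates 2 and 4, and 44.9 to 51.6 in control BAT. Muscle creatine kinase, Ckm, was well above background on KO BAT replicates 1 and 3 alone (levels 1.19 and -1.76). The fast myosin Myh4 stood at 5.02 and 2.80 there. Skeletal actin, Acta1, ranged from -3.66 to -0.65 in control BAT, was 3.76, -0.83, 1.23 and 0.07 in KO BAT, and ranged from 1.33 to 4.56 in control gWAT and 4.88 to 5.85 on the gWAT arrays labelled KO. The summed level of 7 liver genes, a list added after the data were seen, was at most 0.580 in BAT but 14.7 to 836 in control gWAT and 3.90 to 289 on the labelled KO arrays. The summed level of 7 macrophage genes was 26.6 to 36.6 in control BAT and 81.3 to 120 in KO BAT, with 6 of the 7 higher by the test. The sum of 6 fibroblast and preadipocyte genes was 124 to 170 and 220 to 316, with 5 of the 6 higher, among them Col1a1 (1.87) and Pdgfra (1.59), and that of 8 adipocyte genes was 2443 to 2960 and 1027 to 1382, with all 8 lower. All 8 adipocyte genes were well above background on every array. Of all genes tested in BAT, 27.5% passed as higher in KO and 34% as lower. Results in bulk tissue cannot tell fewer cells of a type apart from less RNA per cell.

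In BAT, 4 of the 6 tested creatine genes were higher with Adipo-Pgam1 KO than without. These were Gatm, Gamt, Slc6a8 and Alpl, with log2 changes from 0.49 to 2.76, while Ckb (0.56) and Ckmt1 (-0.25) did not pass the test. Over all genes tested in BAT, 61.5% passed in either direction, 27.5% as higher and 34% as lower in KO. The median log2 change of the 6 genes was 0.61, against -0.08 over all genes. Directions in BAT depended on the scale: with the mean of Actb and Rplp0 as the reference the median of all genes moved to -0.67 (0.42 with the spike-in probes), Slc6a8 (-0.10) and Ckb (-0.03) lay below 0, and 2 of the 6 genes passed, Gatm as higher and Ckmt1 as lower (-0.84). Relative to the all-gene median under that same reference, Gatm was at 2.84, Gamt at 0.87, Alpl at 0.74, Ckb at 0.64, Slc6a8 at 0.58 and Ckmt1 at -0.16. These values are the same without that reference, because it shifts the change of every gene by the same amount. They thus cannot show whether a gene's direction holds under it.

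In gWAT only Alpl passed among the 6 tested genes, and it was higher on the arrays labelled Adipo-Pgam1 KO; 17.8% of all genes tested in gWAT passed, 9.99% as higher and 7.85% as lower. The median change of the 6 genes was 0.27, against 0.05 over all genes. The difference between the genotype effects in the 2 depots passed for Gatm alone, where the gWAT effect was the lower one, against 48.3% of all genes for that test, 27.4% with the gWAT effect higher and 20.9% with it lower.

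**Figure D1:**
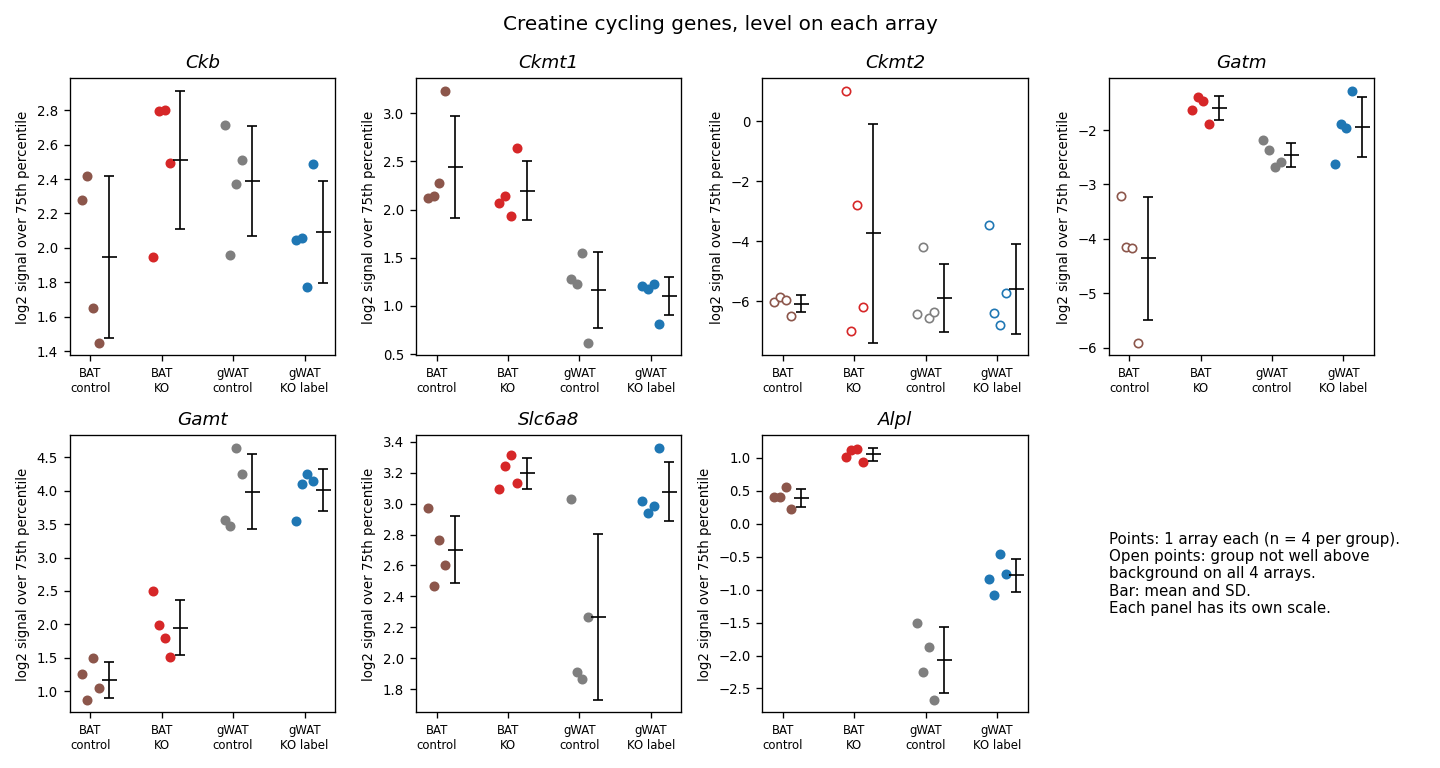
Level of each creatine gene's brightest probe (log2 of signal over the array's 75th percentile, vertical axis) on every array, in 4 groups of 4 arrays, with the group mean and SD, and open points where a group was not well above background on all 4 arrays. Alpl separates all 4 groups, Gatm is lowest in control BAT, Gamt is higher in gWAT than in BAT, and Ckmt2 lies at or near background on most arrays.

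Gatm codes for glycine amidinotransferase, the first and regulated step of creatine synthesis. Its 250 bases upstream of the RefSeq start site, chr2:122611278-122611527 on the minus strand (GRCm38.p6), are shown because Gatm had the largest change of the 7 genes in BAT, printed 5′ to 3′ on the gene's strand, with capitals marking the CCAAT letters in either orientation.
Gatm: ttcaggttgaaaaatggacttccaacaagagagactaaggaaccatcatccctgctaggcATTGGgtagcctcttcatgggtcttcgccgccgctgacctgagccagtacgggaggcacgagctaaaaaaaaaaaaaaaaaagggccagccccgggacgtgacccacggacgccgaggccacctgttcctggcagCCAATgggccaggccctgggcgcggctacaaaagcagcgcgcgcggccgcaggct
The window held 2 such matches, and CCAAT or its reverse complement ATTGG occurred in 33.8% of the 32851 promoters of the table.

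In control BAT the Gatm levels were -3.20, -4.15, -4.16 and -5.91, and only 1 of these 4 arrays was well above background. In KO BAT they were -1.64, -1.40, -1.47 and -1.90, all well above background. The groups did not overlap, as for 57.1% of all genes tested in BAT. As measured, every KO array was above every control array by more than the KO arrays differed among themselves. The log2 change was 2.76 (SE 0.49, 95% interval 1.65 to 3.86, adjusted p = 0.0012), a 6.76-fold difference as measured. With each control array set no lower than its dimmest probe well above background, KO BAT was 4.56-fold higher. That limit is the lowest over all probes on the array, so the difference may be smaller.

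A dimmer second Gatm probe was not well above background on any control BAT array and was on all 4 KO arrays. At the same background limit it was 2.11-fold higher on them. Its adjusted p of 8.57e-05 belongs to the measured values, which were not well above background in controls. In gWAT the Gatm levels were -2.19, -2.36, -2.67 and -2.59 in controls and -2.63, -1.88, -1.97 and -1.28 on the labelled KO arrays. These groups overlapped, and the log2 change of 0.51 (SE 0.26, adjusted p = 0.204) did not pass. The genotype effect was smaller in gWAT than in BAT by 2.24 on the log2 scale, that is, the gWAT effect minus the BAT effect was -2.24 (SE 0.60, 95% interval -3.52 to -0.97, adjusted p = 0.00653). With control BAT set at its background limit the difference was -1.68, a value with no test. On the brightest probes, no other creatine gene passed this test. The macrophage list and the fibroblast and preadipocyte list were higher on the KO BAT arrays as well (values above), and their part in the Gatm, Gamt, Slc6a8 and Alpl results was not tested. The sizes depended on the background: with normexp on the 75th-percentile scale the BAT change was 0.94 and the difference between depots -0.59, and both passed (adjusted p = 0.000127 and 0.0451).

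Gamt codes for guanidinoacetate methyltransferase, the second step of synthesis. Its upstream 250 bases, chr10:80261013-80261262 on the minus strand (GRCm38.p6), are shown because Gamt had the largest difference between depots in the controls, with capitals marking the GC-box letters GGGCGG in either orientation.
Gamt: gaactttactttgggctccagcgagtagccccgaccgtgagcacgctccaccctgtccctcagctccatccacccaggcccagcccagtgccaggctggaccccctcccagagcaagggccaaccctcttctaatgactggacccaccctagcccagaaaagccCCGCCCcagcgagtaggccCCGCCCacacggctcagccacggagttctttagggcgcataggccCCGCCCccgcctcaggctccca
The window held 3 matches, all read as CCGCCC on this strand, and 32.7% of the promoters in the table held at least one.

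Gamt levels were 1.26, 0.87, 1.49 and 1.04 in control BAT and 2.50, 1.99, 1.80 and 1.51 in KO BAT. The lowest KO array was just above the highest control array. The log2 change was 0.79 (SE 0.22, 95% interval 0.28 to 1.29, adjusted p = 0.0134), a 1.73-fold difference. Replicate 1 of KO BAT, the array with the highest muscle sum, had the highest Gamt level, and without KO replicates 1 and 3 the change was 0.59 and no longer passed (adjusted p = 0.0666). Within slide 2, which holds 1 control BAT array, it was 0.91 and did not pass (adjusted p = 0.0927, and 0.0753 with slide as a fixed block), and with slide as a random block it was 0.81 and passed (adjusted p = 0.0208).

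In gWAT the Gamt levels were 3.57, 3.47, 4.64 and 4.26 in controls and 3.55, 4.10, 4.25 and 4.15 on the labelled KO arrays, a log2 change of 0.03 (SE 0.28, 95% interval -0.61 to 0.67, adjusted p = 0.955). Gamt is abundant in liver, and on the same arrays the liver sums were 114, 836, 21.5 and 14.7 in controls and 3.90, 289, 184 and 49.1 with the KO label. Their part in the Gamt levels was not tested.

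The genes that supply creatine synthesis and its methyl donor were taken as a list of 20. In BAT 15 of them could be tested, 6 were higher in KO and 4 lower, with a median change of -0.13, where 61.5% of all genes passed with a median of -0.08. Slc7a1, the cationic amino acid transporter that brings arginine into cells, had a log2 change of 3.80 (SE 0.33, adjusted p = 3.21e-05), and Mtr, methionine synthase, one of 1.53. Gnmt, glycine N-methyltransferase, which consumes S-adenosylmethionine, had -1.52, and Pemt, which makes phosphatidylcholine with the same methyl donor, had -1.32. In gWAT 17 were tested, 3 were higher and 1 lower, with a median of 0.09 against 0.05, where 17.8% of all genes passed. Mtr was at 0.88, Odc1, ornithine decarboxylase, at 0.82 and Oat, ornithine aminotransferase, at -0.85. The 3 higher calls fell to 0 or 1 without any one of the control gWAT arrays or of the labelled KO replicates 1 to 3, and to 0 with slide as a fixed block. Between the control depots 16 were tested, where 35.4% of all genes passed as higher in BAT and 29.3% as lower. Of the 16, 4 were higher in BAT, led by Ahcyl1 (3.07), which codes for a protein related to adenosylhomocysteinase, and 4 were lower. Of these 4, Slc16a12 is a transporter known to carry creatine, and Bhmt remethylates homocysteine and is on the liver list too. Neither was well above background on any control BAT array. At the background limit they were 32.5-fold and 24.5-fold higher in gWAT. Their adjusted p-values of 2.24e-07 and 0.00586 belong to the measured values, which were not well above background in BAT. Slc7a1 (-2.30) and Oat (-1.12) were measured in both depots.

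Slc6a8, the creatine transporter, had levels of 2.97, 2.47, 2.77 and 2.60 in control BAT and 3.09, 3.24, 3.32 and 3.14 in KO BAT. The groups did not overlap, as for 57.1% of all genes tested in BAT, and the log2 change was 0.49 (SE 0.13, 95% interval 0.21 to 0.78, adjusted p = 0.00833), a 1.41-fold difference. In gWAT the levels were 3.03, 1.91, 1.86 and 2.27 in controls and 3.02, 2.94, 2.99 and 3.36 on the labelled KO arrays. Control replicate 1 lay among the KO arrays, and the log2 change of 0.81 (SE 0.26, 95% interval 0.23 to 1.39, adjusted p = 0.0588) did not pass. Without that array it was 1.06 (adjusted p = 0.00988). That array was also the one with the highest summed level of 7 epididymis and testis genes, 14.5, against at most 1.60 on any other array.

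The second Slc6a8 probe was dimmer and moved further. Its levels were 0.04, -0.33, -0.25 and -0.38 in control BAT and 0.84, 1.05, 1.08 and 0.96 in KO BAT, a log2 change of 1.21 (adjusted p = 5.31e-05). In gWAT its levels were -1.01, -1.71, -1.92 and -1.34 in controls and 0.33, -0.03, 0.24 and 0.45 on the labelled KO arrays, a log2 change of 1.74 (adjusted p = 0.00284). On this probe the groups separated in both depots. The difference between the depots' effects did not pass on either probe (0.31, adjusted p = 0.402 for the brighter and 0.53, adjusted p = 0.0939 for the dimmer). On this scale both probes were thus higher with the KO label in both depots, and the dimmer one had the larger change, passing in gWAT where the brighter one did not.

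**Figure D2:**
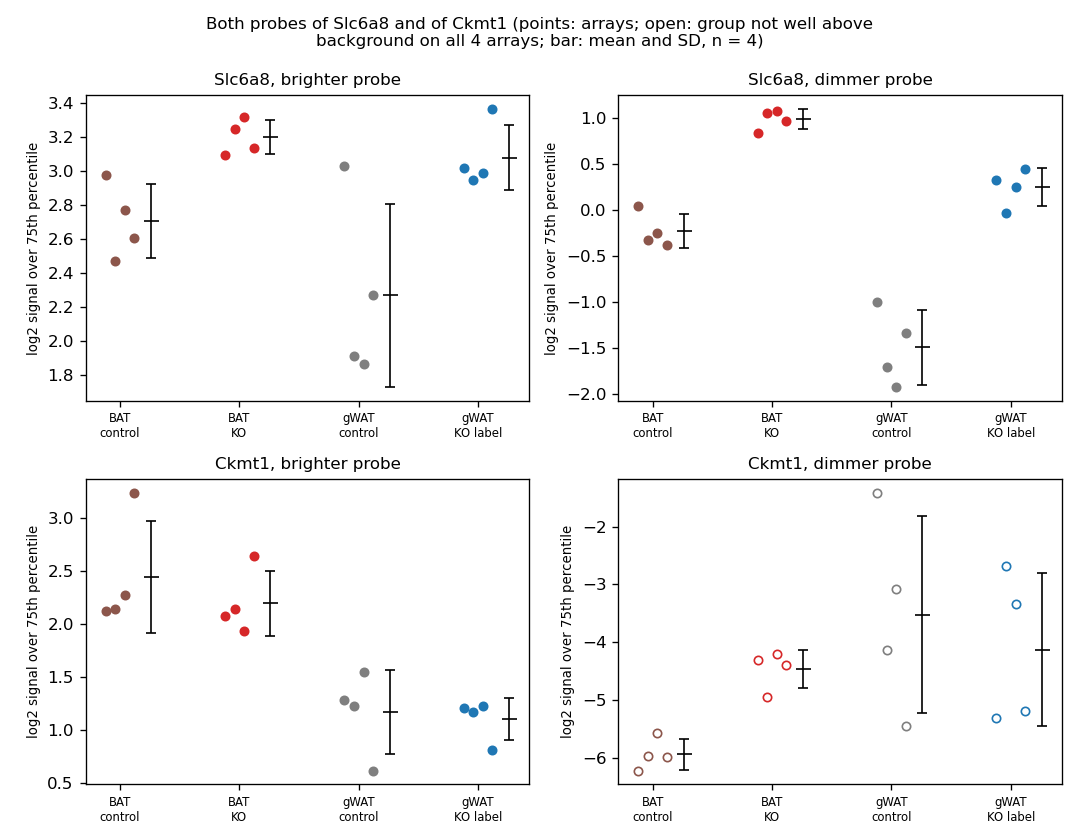
Levels (log2 of signal over the 75th percentile, vertical axis) of the brighter and the dimmer probe of Slc6a8 and of Ckmt1 on each array by group, with mean and SD (n = 4), and open points where a group was not well above background on all 4 arrays. The dimmer Slc6a8 probe separates KO from control arrays in both depots, and the dimmer Ckmt1 probe has open points in all 4 groups.

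Ckb, the cytosolic creatine kinase, had levels of 2.28, 2.42, 1.65 and 1.45 in control BAT and 1.95, 2.80, 2.80 and 2.50 in KO BAT. The groups overlapped through KO replicate 1, one of the arrays with Ckm above background. The log2 change was 0.56 (SE 0.27, 95% interval -0.05 to 1.18, adjusted p = 0.0994), and without that replicate it was 0.75 (adjusted p = 0.0359). The second Ckb probe had a change of 0.67 that passed (adjusted p = 0.0461). In gWAT the levels were 2.72, 1.96, 2.37 and 2.51 in controls and 2.04, 2.06, 1.77 and 2.49 on the labelled KO arrays, and the change was -0.30 (95% interval -0.76 to 0.17, adjusted p = 0.340). The gWAT effect minus the BAT effect was -0.86 (adjusted p = 0.0598) on the brighter probe and -0.89 (adjusted p = 0.0399) on the dimmer one.

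Ckmt1, the ubiquitous mitochondrial kinase, had levels of 2.12, 2.14, 2.27 and 3.23 in control BAT and 2.07, 2.14, 1.93 and 2.64 in KO BAT, a log2 change of -0.25 (SE 0.27, 95% interval -0.86 to 0.36, adjusted p = 0.449). Replicate 4 was the highest of each BAT group. Control replicate 4 is the only control BAT array on the slide of the KO arrays, and within that slide the change was -1.04 (adjusted p = 0.0327), whereas without that array it was 0.02. In gWAT the levels were 1.28, 1.22, 1.55 and 0.62 in controls and 1.20, 1.17, 1.23 and 0.81 on the labelled KO arrays, a change of -0.06 (95% interval -0.53 to 0.41, adjusted p = 0.858). The second Ckmt1 probe had no group with 4 arrays well above background, with levels of -6.21 to -5.56 in control BAT, -4.93 to -4.20 in KO BAT, -5.44 to -1.42 in control gWAT and -5.30 to -2.68 on the labelled KO arrays. Since 0 of 4 control and 2 of 4 KO BAT arrays were well above background, it gives no measured change there.

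Ckmt2, the sarcomeric mitochondrial kinase, was well above background on 4 of the 16 arrays and was not tested. Its levels were -6.00, -5.85, -5.96 and -6.47 in control BAT, none of them well above background. In KO BAT they were 1.0, -6.98, -2.78 and -6.18, and replicates 1 and 3, the arrays on which Ckm was well above background, were the ones on which Ckmt2 was too. In gWAT they were -6.43, -4.18, -6.56 and -6.34 in controls and -3.45, -6.39, -6.79 and -5.73 on the labelled KO arrays. The gWAT arrays above background, control replicate 2 and labelled KO replicate 1, were the 2 gWAT arrays on which all 4 heart genes (Myh6, Nppa, Tnnt2 and Tnni3) were well above background, with summed levels of 1.60 and 2.45. On the other 6 BAT arrays, on which Ckm was not well above background either, the Ckmt2 probe did not rise above background, which is no evidence that the transcript is absent.

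**Figure D3:**
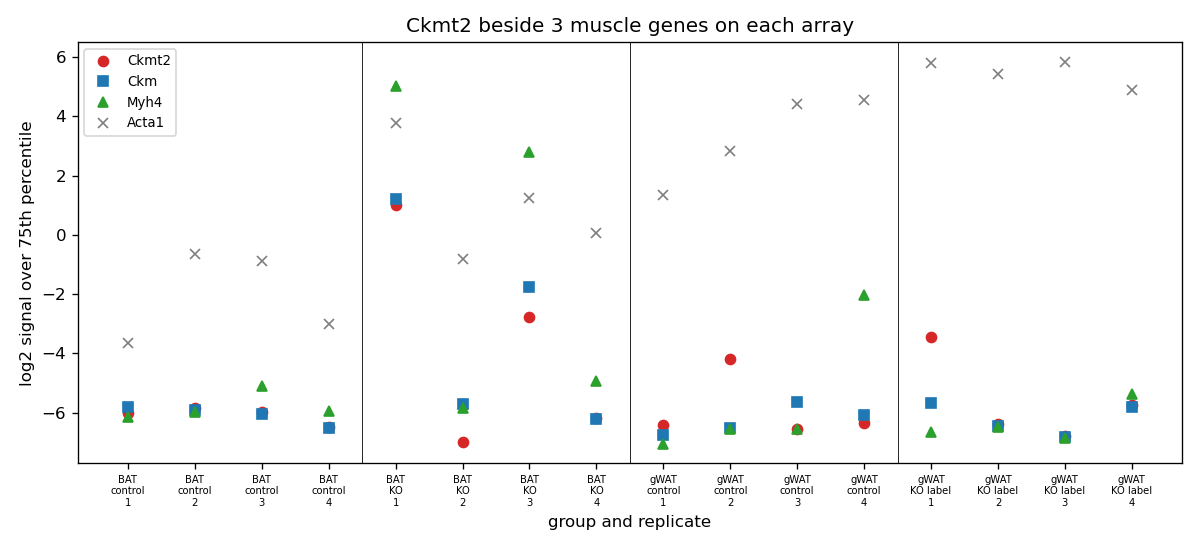
Levels (log2 of signal over the 75th percentile, vertical axis) of Ckmt2 and of the muscle genes Ckm, Myh4 and Acta1 on each of the 16 arrays, ordered by group and replicate (horizontal axis). On KO BAT replicates 1 and 3 Ckmt2 stands at 1.0 and -2.78, above every other BAT array, and Ckm and Myh4 do too.

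Alpl was the creatine gene that separated every group. Its levels were 0.41, 0.40, 0.56 and 0.22 in control BAT and 1.01, 1.12, 1.14 and 0.93 in KO BAT, a log2 change of 0.66 (SE 0.10, 95% interval 0.42 to 0.89, adjusted p = 0.000656), or 1.58-fold. In gWAT the Alpl levels were -1.51, -2.25, -1.87 and -2.67 in controls and -0.84, -1.08, -0.46 and -0.77 on the labelled KO arrays, a log2 change of 1.29 (SE 0.25, 95% interval 0.72 to 1.86, adjusted p = 0.0138), or 2.44-fold. The sum of 5 smooth muscle genes was 35.9 to 64.3 on the control and 65.3 to 105 on the labelled KO gWAT arrays, with Des (1.52) and Acta2 (1.33) past the threshold and the other 3 not, and its part in the Alpl result was not tested. Non-overlap of the control and KO groups was found for 57.1% of all genes tested in BAT and 24.2% in gWAT. How many of all genes separate all 4 groups was not counted. The effects in the 2 depots differed by 0.63, which did not pass (adjusted p = 0.0794). In gWAT the change was 1.89 within slide 3, with 1 control array, and did not pass there (adjusted p = 0.0504).

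RefSeq lists 2 start sites for Alpl, and the array's single Alpl probe cannot be assigned to either. The upstream one (chr4:137796385-137796634, minus strand, GRCm38.p6) and the downstream one (chr4:137766476-137766725, minus strand) are shown because Alpl is known to be transcribed from alternative first exons, with capitals marking the GC-box letters GGGCGG in the first and the TATA letters TATAAA, read here as TTTATA on the reverse strand, in the second.
Alpl upstream start: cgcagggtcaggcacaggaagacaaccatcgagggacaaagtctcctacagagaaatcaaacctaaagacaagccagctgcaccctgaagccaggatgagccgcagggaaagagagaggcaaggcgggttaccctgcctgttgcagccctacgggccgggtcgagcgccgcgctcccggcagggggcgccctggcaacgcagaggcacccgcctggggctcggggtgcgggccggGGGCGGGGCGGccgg
Alpl downstream start: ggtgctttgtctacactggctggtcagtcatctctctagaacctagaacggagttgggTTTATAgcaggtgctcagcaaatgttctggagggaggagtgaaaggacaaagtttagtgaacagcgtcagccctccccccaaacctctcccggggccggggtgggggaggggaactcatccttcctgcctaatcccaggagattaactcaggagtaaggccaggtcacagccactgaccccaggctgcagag
The upstream window held 2 overlapping GC boxes and 68.4% G and C, and the downstream window held 1 TATA match, whose letters occurred in 12.4% of all promoters, and 56% G and C. None of the printed windows held the E-box letters CACGTG (6.02% of promoters), the nuclear receptor half-site AAGGTCA (4.08%) or the cAMP element TGACGTCA (1.55%), on either strand.

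Of 10 other phosphatase, pyrophosphate and phosphate transport genes, 6 could be tested in each depot. In BAT 2 were higher in KO and 1 lower, where 61.5% of all genes passed, with Slc20a1, a sodium-phosphate cotransporter, at 1.49 (SE 0.26, adjusted p = 0.00121) and Lhpp, a phosphohistidine phosphatase, at -0.80. In gWAT 1 was higher and 1 lower, where 17.8% of all genes passed. Phospho1 is the phosphoethanolamine and phosphocholine phosphatase of mineralizing cells. It was not well above background on any control gWAT array and was on all 4 labelled KO arrays. At the background limit it was 7.77-fold higher on them. Its adjusted p of 0.00157 belongs to the measured values, which were not well above background in controls. Lhpp was at -0.51, a call that held without control gWAT replicate 1 and was lost without any other single gWAT array. The list's medians were 0.13 in BAT and 0.15 in gWAT, against -0.08 and 0.05 over all genes.

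Between depots, the same controls and KO arrays served again, so these comparisons share arrays with those above. In littermate controls 4 of the 6 tested genes differed, 2 higher in BAT and 2 higher in gWAT, where 64.7% of all genes tested passed, 35.4% as higher in BAT and 29.3% as lower, and 60.8% had groups that did not overlap. The groups did not overlap for the same 4 genes. Alpl was higher in BAT by 2.47 (SE 0.24, adjusted p = 3.37e-05), or 5.54-fold, and Ckmt1 by 1.27 (SE 0.29, adjusted p = 0.00463), or 2.42-fold. Gamt was 7.06-fold lower in BAT (log2 difference -2.82, SE 0.28, adjusted p = 3.82e-05). Gatm was lower by the measured values (-1.90, adjusted p = 0.00838), with gWAT 2.52-fold higher than BAT at the background limit. Ckb (-0.44, adjusted p = 0.157) and Slc6a8 (0.43, adjusted p = 0.168) did not pass on the brighter probes, and Slc6a8 passed on the dimmer one (1.26, adjusted p = 0.000736). The dim Ckmt1 probe, near background, was higher in gWAT as measured (-2.41).

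In Adipo-Pgam1 KO mice, as labelled, Alpl (1.84, adjusted p = 2.78e-05) and Ckmt1 (1.09, adjusted p = 0.00124) were higher in BAT and Gamt was lower (-2.06, adjusted p = 0.000198), where 46.1% of all genes tested passed, 23.4% as higher in BAT and 22.7% as lower, and 43.1% had groups that did not overlap. For these 3 genes the groups did not overlap. Gatm was at 0.34 (adjusted p = 0.311), Ckb at 0.42 (adjusted p = 0.155) and Slc6a8 at 0.12 (adjusted p = 0.458). In this comparison slide and depot cannot be told apart, because all BAT arrays lay on slide 2 and all gWAT arrays on slide 3.

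**Figure D4:**
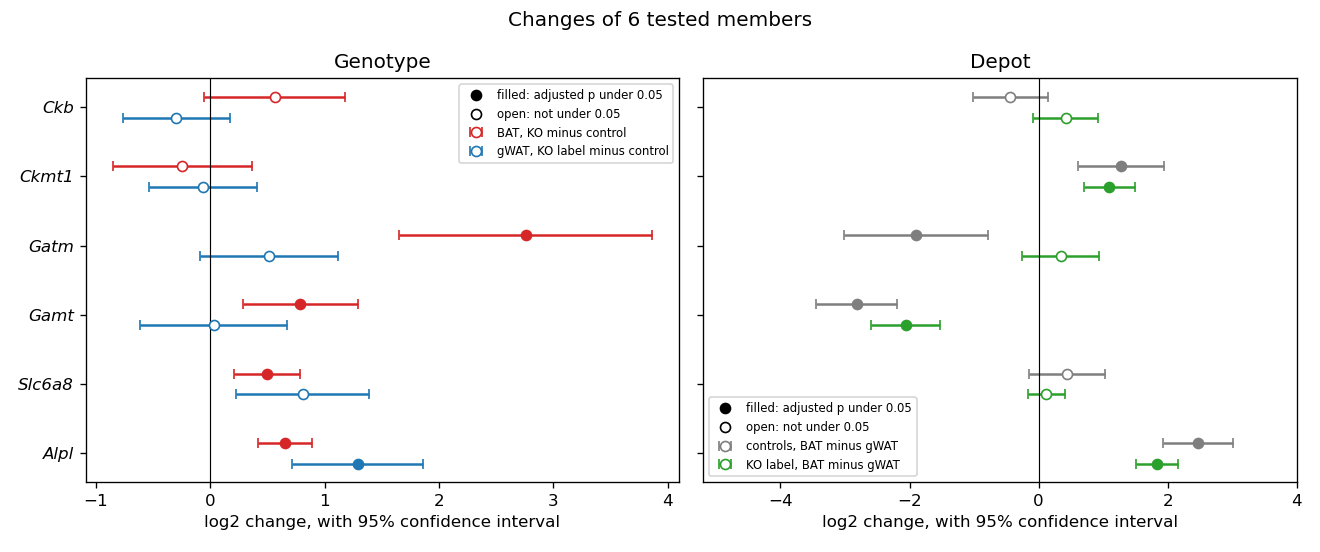
Log2 change (horizontal axis) of the 6 tested creatine genes with its 95% confidence interval, for genotype in each depot (left) and for BAT minus gWAT in each genotype (right), with filled points where the adjusted p was under 0.05. Gatm is furthest above 0 for genotype in BAT at 2.76, and Gamt is furthest below 0 for depot in controls at -2.82.

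Ordered by mean level on its own probe, Alpl ran from KO BAT (1.05) through control BAT (0.40) and labelled KO gWAT (-0.78) to control gWAT (-2.07), and no neighbours in that order overlapped. Gamt ran from labelled KO gWAT (4.01) and control gWAT (3.98), which overlapped, to KO BAT (1.95) and control BAT (1.16), which did not. Gatm ran from KO BAT (-1.60) through labelled KO gWAT (-1.94) and control gWAT (-2.45), each overlapping the next, to control BAT (-4.36), which stood apart. Ckmt1 fell into control BAT (2.44) and KO BAT (2.20), which overlapped, and control gWAT (1.17) and labelled KO gWAT (1.1), which overlapped as well, with a gap between the depots. Slc6a8, from 3.20 in KO BAT to 2.27 in control gWAT, Ckb, from 2.51 in KO BAT to 1.95 in control BAT, and Ckmt2 had no neighbouring groups that separated.

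The adenylate and phosphate genes that work beside the creatine kinases were mostly lower where 4 creatine genes were higher. Of 21 such genes, all tested, 14 were lower and 1 higher in KO BAT. Over all genes 34% passed as lower and 27.5% as higher. The list's median change was -0.72 against -0.08 over all genes, and 6 of its genes were higher and 9 lower on the spike-in scale. Ppa1, the cytosolic pyrophosphatase, was at -2.02 (SE 0.15, adjusted p = 1.60e-05) and Ampd2, an AMP deaminase, at -1.82, while Slc25a24, an ATP-magnesium/phosphate carrier of mitochondria, was at 2.58. In gWAT 10 of the 21 were higher, where 9.99% of all genes passed as higher, with a median of 0.57 against 0.05. Among them were Slc25a3, the mitochondrial phosphate carrier, at 0.98 and Chchd3, a subunit of the inner membrane organizing complex, at 0.86. The gWAT count was 3 with median scaling and 1 to 3 without any one of control replicates 1 to 3 or labelled KO replicates 1 to 3. It was 0 with slide as a fixed block, where the list's median was 0.41 and that of all genes 0.01, and 10 with slide as a random block. Between the control depots 16 were higher in BAT and 2 lower, where 35.4% and 29.3% of all genes passed that way. They were led by Immt (2.40), a core subunit of the same complex, and Slc25a24 (-2.49).

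The genes of the brown adipocyte programme and of other substrate cycles, which act beside the creatine cycle in thermogenic fat, were taken as a list of 20. In BAT 17 of 19 tested were lower in KO (13 on the spike-in scale), where 34% of all genes passed as lower. The list's median was -1.23 against -0.08 over all genes. Dio2, the deiodinase that activates thyroid hormone, and Dgat2, a triglyceride synthesis enzyme, were both at -2.42. Gatm, Gamt, Slc6a8 and Alpl were thus higher in BAT on the arrays on which this list was lower. In gWAT 7 of 17 tested were higher and 3 lower, where 9.99% and 7.85% of all genes passed that way. Cidea, a lipid droplet protein of brown adipocytes, was at 3.41, Cox7a1, a cytochrome oxidase subunit, at 2.18, and Pm20d1 and Adrb3 both at -1.22. The higher count was 4 without labelled KO replicate 1 or 3, and the lower count 1 without control replicate 2. Within slide 3, with 1 control array, these calls did not pass and the list's median was 0.61. The summed level of 8 brown adipocyte genes was 4279 to 4596 in control BAT, 1402 to 2297 in KO BAT, 25.7 to 61.9 in control gWAT and 126 to 329 on the labelled KO arrays.

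The genes whose levels followed each creatine gene most closely over the 16 arrays were named by the root mean square difference of centred log2 levels, among 12359 or 12360 genes. Ckmt2 was closest to the fast skeletal muscle genes Tnnt3 (1.19), Tnni2 (1.25) and Tnnc2 (1.30), against its own spread of 2.01. Gatm was closest to Rab7b (0.36), a late endosome GTPase, to the platelet and megakaryocyte chemokine Pf4 (0.41) and to Cyth4 (0.41), against 1.20, with neither Gatm nor Ckmt2 well above background on all arrays. Alpl was closest to Des (0.32), which codes for desmin, to the lactate transporter Slc16a1 (0.35) and to Bri3bp (0.35), against 1.22. Gamt was closest to Islr (0.35), Phldb1 (0.36) and Pkp2 (0.36), against 1.30, and Slc6a8 to Tpd52 (0.21), Pafah1b3 (0.22) and Whrn (0.26), against 0.45. Ckb was closest to Zbed6 (0.26, against 0.40) and Ckmt1 to Scgb1b3 (0.18, against 0.68). These values are descriptions over arrays that differ in depot, genotype and slide together.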

How the data were processed

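Total RNA of whole BAT and gWAT was labelled with Cy3 and hybridised to single-colour Agilent arrays, from 100 ng per the labels, whereas the methods give another amount. The authors deposited the scanner output of each array, made with Agilent Feature Extraction 10.7.1.1 per the submitters' processing notes. It holds processed signal intensity, which the software had background-subtracted, and the median signal and background intensity of each spot, together with other columns of quality flags (well above background, saturated, outlier) that the authors deposited unchanged. A table of intensities that the authors had scaled to the 75th percentile was also deposited and served as an alternative. On each array the median log2 difference between that table and the values computed here was at most 0.0051. Groups came from the sample labels. Age differed from 16 weeks only for KO replicate 4 (14 weeks).

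Control spots and spots flagged as non-uniform outliers were left out, and the other spots of one probe were averaged. Spots flagged as population outliers were kept. Levels were the log2 ratio of a probe's processed signal to the 75th percentile on its array. Probes were named through RefSeq accessions, of which 91.9% of 35886 matched a symbol, and the brightest probe stood for a gene. A gene was tested when at least 1 of the groups compared had all 4 arrays well above background. Each comparison was fitted over all such genes with limma 3.58.1 in R 4.3.3, with Benjamini-Hochberg adjustment over all of them and a threshold of 0.05, after a check on simulated data. For single values, the smallest 2-sided exact p that 4 against 4 arrays allow is 0.0286. The summed level of a marker list is the sum of its linear signals over the 75th percentile. Promoter windows are the 250 bases before RefSeq start sites in GRCm38.p6, which 6 of the 7 genes had in the table; Slc6a8 had no entry. Python 3.11.15 and scipy 1.17.1 served for summaries.

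The 7 genes, the lists and the tests were chosen with earlier results of these data known. Named beside the 7 genes were Pgam1, Ckm and Acta1, the 3 genes closest to each member, and from each list at most 2 genes in each direction with the largest change among those that passed and were measured in both groups. Myh4, Phospho1, Slc16a12 and the liver genes (Alb, Apoa1, Ttr, Serpina1c, Fgb, Bhmt and Mat1a) were named after their values were seen. Alternatives were other scalings (quantile, array median, spike-in probes, Actb with Rplp0), normexp with an offset of 50 on the median signals because the mean signals were not used here, filters on dim probes, other probes, slide as a fixed or random block, the replicate number as a block, 1 fit over all 16 arrays, the methods' t-test and leaving out each array. Leaving out both BAT arrays with Ckm above background was chosen after seeing the data. Same-numbered samples had correlated deviations in some pairs only (from -0.16 to 0.55, in no comparison above 0.1 for all 4 numbers), so the replicate numbers were not taken as pairs.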

Additional observations from a re-analysis of the deposited data

Results flagged for a closer look

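Among 44 sets of 4 arrays checked for a sample far from the other 3, of which chance gives about 1 in 20, 3 stood out. Ckmt1 on control BAT replicate 4 was at 3.23 (the others 2.12 to 2.27), and this is the one control BAT array on slide 2. Ckmt1 on replicate 4 of the gWAT arrays labelled KO, from the 14-week mouse, was at 0.81 (the others 1.17 to 1.23). Ckmt2 on control gWAT replicate 2 was at -4.18 (the others -6.56 to -6.34), the control gWAT array on which all 4 heart genes were above background. The Gatm genotype effect differed between the depots by the test of the difference itself, gWAT effect minus BAT effect -2.24 on the log2 scale (adjusted p = 0.00653). That p-value belongs to the measured values, and Gatm was well above background on only 1 of the 4 control BAT arrays. With control BAT set at its background limit the difference was -1.68, a value with no test. With normexp on the same scale it was -0.59 (limma adjusted p = 0.0451), so its size depended on the background.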

How the results depend on the processing

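The number of creatine genes past the threshold moved as follows. In BAT the 4 calls became 2 with Actb and Rplp0 scaling, and they numbered 4 to 5 when each array was left out. In gWAT the 1 call became 2 (Alpl and Slc6a8) with median scaling, spike-in scaling, the mean of probes or all 16 arrays in 1 fit, 0 within slide 3, and 1 to 2 when each array was left out. For the difference between depots the 1 call became 3 with quantile normalization, 2 with normexp and quantile normalization, median scaling, Actb and Rplp0 scaling, the mean of probes or slide as a fixed block, and 1 to 3 when each array was left out. Between depots the counts were 4 to 5 in controls and 3 to 4 in KO when each array was left out. The Gatm call in BAT held in 25 of 25 alternatives, Alpl in 24 of 25, Slc6a8 in 24 of 26 and Gamt in 21 of 25. The Alpl call in gWAT held in 23 of 24, and the Gatm difference between depots in 30 of 30. For Gatm, neither count includes the filter on every array well above background, which left it out and could not test it.

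Directions that turned were all of changes that had not passed, apart from Slc6a8 in BAT with Actb and Rplp0 scaling (-0.10) and Ckmt1 between depots on its dim probe (-2.41 in controls, -0.33 in KO). In BAT Ckb was -0.029 with Actb and Rplp0 scaling. Ckmt1 in BAT was 0.26 with spike-in scaling, 1.47 on the dim probe and -0.39 to 0.018 when each array was left out, with the value above 0 coming without control replicate 4. In gWAT Ckb was 0.19 with spike-in scaling. Ckmt1 in gWAT was 0.057 with median scaling, 0.43 with spike-in scaling, 0.49 with slide as a fixed block or within slide 3, and -0.25 to 0.063 when each array was left out. Gamt in gWAT was -0.11 with quantile normalization, -0.14 with normexp and quantile normalization, -0.028 with Actb and Rplp0 scaling, -0.24 with slide as a fixed block or within slide 3, and -0.14 to 0.25 when each array was left out. For Ckmt1 the gWAT effect minus the BAT effect was -0.051 with normexp and quantile normalization, -0.010 without the 2 BAT arrays with Ckm above background, -2.08 on the dim probe and -0.083 to 0.33 when each array was left out. Slc6a8 between depots in KO was -0.027 with spike-in scaling and -0.079 with Actb and Rplp0 scaling. With Actb and Rplp0, spike-in or median scaling the change of every gene in a comparison shifts by the same amount. Why directions turned under the other settings was not tested.

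Over all genes, the 2525 calls in gWAT became 1388 with median scaling, 6026 with spike-in scaling, 1138 with no filter on dim probes, 184 with slide as a fixed block, 121 within slide 3, 1087 with the replicate block, 4040 with all 16 arrays in 1 fit, 1612 with the methods' t-test and 1143 to 3236 when each array was left out. The 7161 calls for the difference between depots became 3265 with slide as a fixed block, and the 9254 between control depots became 4737 within slide 2. The share of calls that were higher in BAT of KO mice was 44.7%, but 77.7% with spike-in scaling, 17.7% with Actb and Rplp0 scaling and 31.4% with no filter. In gWAT it was 56%, but 71.1% with median scaling, 96.0% with spike-in scaling and 35.9% with slide as a fixed block. For the difference between depots it was 56.7% and 83.7% with Actb and Rplp0 scaling. In control depots it was 54.8% and 70.9% with that scaling, and in KO depots 50.8%, 34.3% with spike-in scaling and 30.9% with Actb and Rplp0 scaling. The replicate block left the numbers of creatine genes past the threshold at 4 in BAT, 1 in gWAT, 1 for the difference, 4 between control depots and 3 between KO depots, and changed no creatine gene's call. It moved the gWAT counts of the adenylate and phosphate list from 10 higher to 0 and of the substrate list from 3 higher to 0; by the methods' t-test these were 2 and 0, and with no filter 1 and 0. Signal over background leaves Ckmt2 and the dim Ckmt1 probe without a call. Gatm was well above background on 1 of 4 control BAT arrays. Its calls against that group thus rest partly on values not well above background.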
